A study of Mus musculus with 4 samples.

Results

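Oxidative phosphorylation genes encode the subunits of the mitochondrial respiratory chain and the ATP synthase. The genes were chosen by symbol, as the mitochondrially encoded mt-Nd, mt-Co, mt-Cyt and mt-Atp genes and the nuclear genes whose names begin with Ndufa, Ndufb, Ndufc, Ndufs or Ndufv and a number, Uqcr, Cox4 to Cox8 with a letter a to c, or Atp5. Of 92 rows that matched, 90 had at least 20 unique molecular identifiers (UMIs, each 1 captured transcript) over the 4 libraries, out of 32285 genes in all. These 90 were 13 mitochondrially encoded and 77 nuclear genes. The 2 left out, Cox8c and Ndufa13, were listed with 0 UMIs, and Ndufa13 overlaps Yjefn3 on the same strand in the annotation used. The mitochondrial members were 7 genes of complex I, 1 of complex III, 3 of complex IV and 2 of complex V. The nuclear members were 35 of complex I, 8 of complex III, 17 of complex IV (Ndufa4 and Ndufa4l2 counted there) and 17 of complex V. Since names and not roles chose them, Cox4i1, Cox4i2, Cyc1 and Cycs lie outside the set, as do all subunits of complex II, and Ndufb1-ps lies in it.

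Wild-type (WT) mice had received DOCA-salt, a mineralocorticoid (deoxycorticosterone acetate) with salt that raises blood pressure, or a sham treatment, and cells were taken from their hippocampus and sensory cortex. Strain, age, dose and duration are not given in the sources used here. Each combination of tissue and treatment has 1 droplet library, so there are 4, and a group is labelled as 3 mice without a statement on pooling. With 1 library per group no test was possible, so no p-value is given. Every interval printed is an exact 95% interval of counting error alone, which says nothing of the spread between animals. Library titles set the groups here. A separate treatment entry disagrees with the title in 2 libraries: DOCA-salt cortex is entered as sham, and sham hippocampus as DOCA-salt. Should the entry be the true one, treatment and tissue would coincide, and no direction given here would be one of treatment.

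Where a pair of values is given for a tissue, the DOCA-salt library comes first and the sham library after it. Depth was alike in the 4 libraries, with 66824217 to 70173987 UMIs in 11159 to 11402 barcodes. After filtering, 10357 to 10778 cells per library were kept, at a median of 5540.5 to 5848 UMIs per cell. Markers placed 90.1% to 95% of them in 1 of 18 cell classes. Of 42025 distinct barcodes, 521 were found in at least 2 libraries. The classes compared between libraries were astrocytes, microglia, oligodendrocytes and endothelial cells, which had at least 100 cells in every library. All their defining markers were detected in every library, and all 8 pericyte markers in the pericyte class. The hippocampus sham library stood apart in holding 232 choroid plexus cells, against 2 in the hippocampus DOCA-salt library, and choroid plexus markers summed to 3201 to 4504 CPM (counts per 1000000 UMIs) in the 4 compared classes there and to 12 to 36.2 CPM in the other libraries.

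In the respiratory chain, complexes I, III and IV pass electrons from NADH to oxygen and pump protons out of the mitochondrial matrix, and complex V lets the protons back to make ATP. Each of these complexes joins subunits made inside the mitochondrion from its own small genome with subunits encoded in the nucleus and imported. Mitochondrial DNA is transcribed as long polycistronic RNAs that are then cut, mostly at transfer RNAs, so levels of the mature messengers depend on RNA processing and decay as well as on transcription. In brain, neurons rely strongly on oxidative phosphorylation, while astrocytes are known for high glycolysis.

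A pair of junctions in the mitochondrial genome shows why some members cannot be read separately. The genes mt-Atp8 and mt-Atp6 encode subunits of complex V on 1 shared messenger, and their annotated ends share 43 bases (chrM:7927-7969, GRCm38, plus strand). The genes mt-Nd4l and mt-Nd4, of complex I, also share a messenger and 7 bases (chrM:10167-10173). The sequences below, from the GENCODE vM21 transcripts, hold the shared bases in capitals with 30 bases of each gene on either side, 5′ to 3′.
mt-Atp8 and mt-Atp6, chrM:7897-7999: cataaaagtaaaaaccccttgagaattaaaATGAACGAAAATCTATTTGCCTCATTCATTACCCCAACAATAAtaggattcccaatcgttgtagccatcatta
mt-Nd4l and mt-Nd4, chrM:10137-10203: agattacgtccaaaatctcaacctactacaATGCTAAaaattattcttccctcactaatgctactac
A library of transcript 3′ ends samples such a messenger mostly in its downstream gene. In astrocytes mt-Atp8 had 15.6 to 33.9 CPM and mt-Atp6 had 2413 to 4760.2 CPM over the 4 libraries, and values of mt-Atp8 and mt-Nd4l are uncertain for this reason. The gene mt-Nd6 is the only member on the minus strand of the mitochondrial genome (chrM:13552-14070). It overlaps the end of mt-Nd5, had 619 UMIs in all, and the counting strand is not given in the sources used here. Of the nuclear members, 10 overlap another gene on the same strand and 36 on either strand.

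Nuclear members are spread over the chromosomes, and 2 motifs known from their promoters were searched in the RefSeq promoter windows (GRCm38.p6, 250 bases before to 50 after each start). The palindromic core of the nuclear respiratory factor 1 motif, searched as CGCATGCG, was held by 9 of 63 nuclear members with a window (14.3%) and by 2.07% of 27025 genes. The motif of ETS factors such as GABP, searched as CCGGAAG on both strands, was held by 15 members (23.8%) and by 9.93% of genes, and 5 members held both. A match is a description of letters, not a bound site. The windows of the 2 members with the first motif and the most UMIs follow, with motif letters in capitals.
Cox6a1, the widely expressed 6a subunit of complex IV, chr5:115348909-115349208, minus strand: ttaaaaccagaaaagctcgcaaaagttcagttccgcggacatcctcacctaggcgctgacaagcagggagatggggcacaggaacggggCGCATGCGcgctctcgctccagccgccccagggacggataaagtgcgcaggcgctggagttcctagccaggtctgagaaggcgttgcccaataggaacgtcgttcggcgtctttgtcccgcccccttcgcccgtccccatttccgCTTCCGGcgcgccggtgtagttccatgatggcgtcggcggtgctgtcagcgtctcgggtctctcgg
Atp5j, coupling factor 6 of complex V, chr16:84834927-84835226, minus strand: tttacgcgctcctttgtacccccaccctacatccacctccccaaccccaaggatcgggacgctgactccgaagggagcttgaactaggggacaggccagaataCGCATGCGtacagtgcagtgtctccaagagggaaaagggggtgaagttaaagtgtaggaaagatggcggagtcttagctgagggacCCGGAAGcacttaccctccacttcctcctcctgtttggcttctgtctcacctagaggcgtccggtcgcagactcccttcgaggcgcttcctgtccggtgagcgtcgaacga
Both windows hold 1 match of each motif. In oligodendrocytes Cox6a1 had 759 and 738 CPM in hippocampus and 745 and 731 CPM in cortex. Atp5j had 465 and 497 CPM in hippocampus and 502 and 491 CPM in cortex in the same cells, so neither passed 1.2-fold there. The other 7 members with the first motif were Atp5g2, Atp5l, Uqcr11, Ndufa11, Uqcrc1, Atp5k and Ndufa8.

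The share of UMIs on the nuclear subset differed among the 4 compared classes by more than it did among the libraries of any of them. Of all classes, the choroid plexus of the hippocampus sham library was highest at 5.45%. Smooth muscle (2.91% to 3.62%, 86 cells in all) and mature neurons (2.63% to 3.14%, 110 cells) followed. Astrocytes had 2.59% and 2.57% in hippocampus and 2.69% and 2.80% in cortex. Endothelial cells, at 2.24% to 2.41%, and oligodendrocytes, at 2.23% to 2.29%, overlapped and both lay below astrocytes. Microglia had 1.12% and 1.07% in hippocampus and 1.19% and 1.08% in cortex, the lowest of the 4 compared classes in every library. Erythroid cells, which lose their mitochondria as they mature, had 0.284% to 0.439%. Their own markers, haemoglobin genes among them, summed to 838721 to 880247 CPM there. All other genes share what is left, so low erythroid shares of either subset give no level for free RNA.

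**Figure D1:**
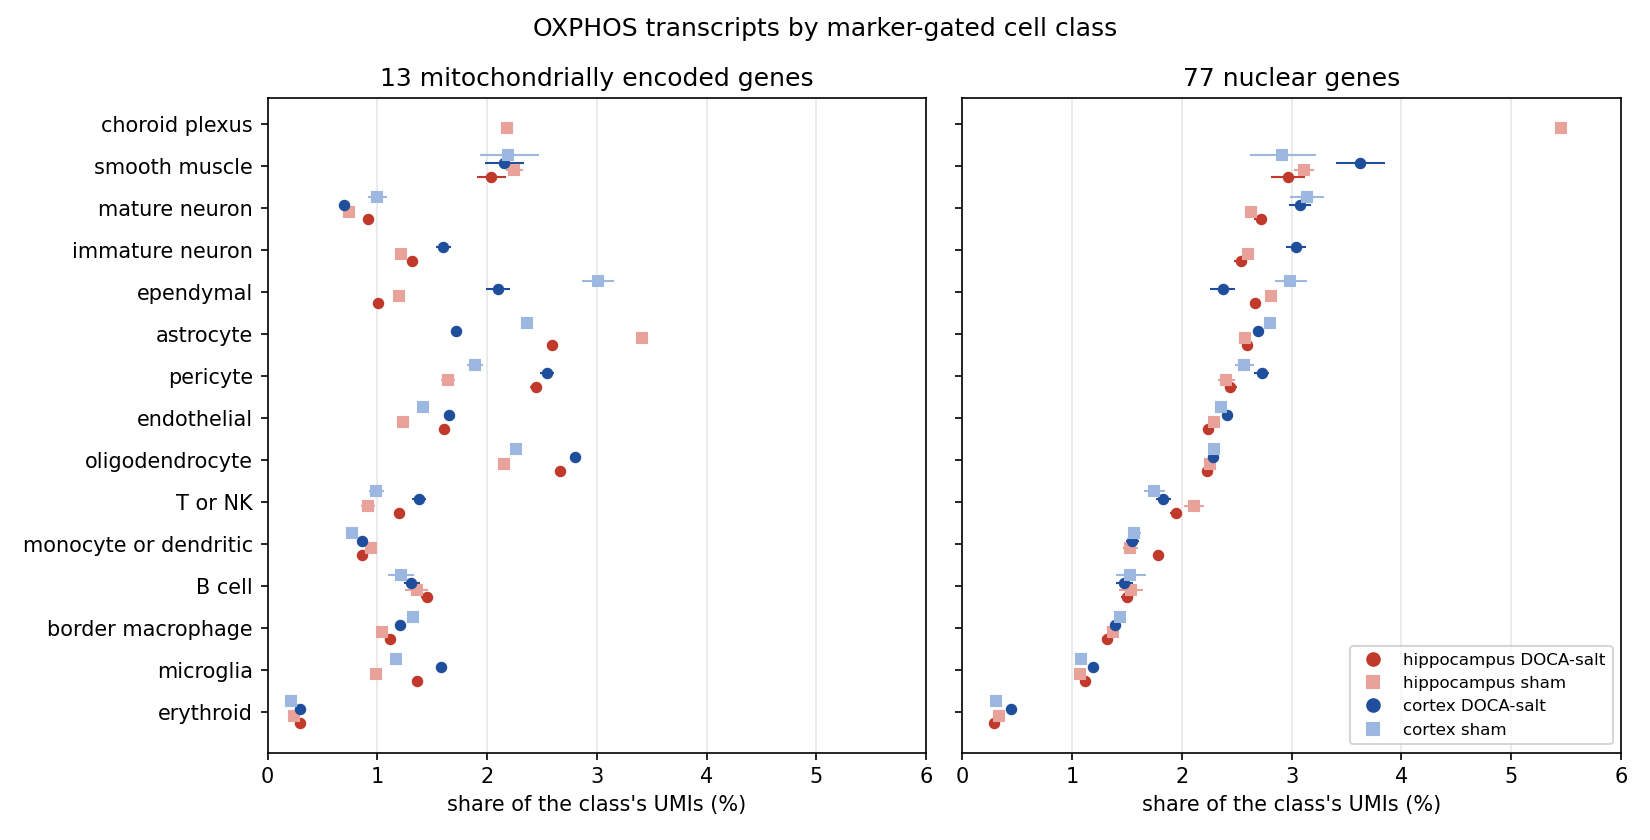
Share of each class's UMIs (%, x axis) on the 13 mitochondrially encoded genes (left) and the 77 nuclear genes (right) in marker-gated classes (y axis) with at least 6 cells in the library, 1 point per library with its exact 95% counting interval. Oligodendrocyte precursors, neutrophils and fibroblasts are not drawn. Nuclear shares of a class lie close together across libraries, while mitochondrial shares of astrocytes spread from 1.71% to 3.41%.

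The mitochondrial subset had another order. Astrocytes ranged from 1.71% to 3.41% of UMIs and overlapped oligodendrocytes at 2.16% to 2.80%. Endothelial cells, at 1.23% to 1.65%, overlapped microglia, at 0.984% to 1.58%. Mature neurons, though high in the nuclear subset, had 0.697% to 0.998%, so that they held 0.226 to 0.335 mitochondrial UMIs per nuclear-subset UMI, against 0.637 to 1.33 in astrocytes. Choroid plexus cells had 2.18%, and erythroid cells 0.211% to 0.296%. Cells above 20% mitochondrial UMIs had been removed, which bounds the subset from above. Over 33 points of class and library, the 2 subsets' levels had a Pearson r of 0.674, a description only, since classes of 1 library share its depth and free RNA.

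Mitochondrially encoded transcripts were lower in the DOCA-salt than in the sham library in astrocytes and higher in microglia, oligodendrocytes and endothelial cells, in both tissues. In astrocytes the 13 genes together took 2.59% and 3.41% in hippocampus and 1.71% and 2.36% in cortex. The ratio of DOCA-salt to sham was 0.760 (0.755 to 0.765) in hippocampus and 0.726 (0.723 to 0.729) in cortex. Microglia, the resident macrophages of brain, had 1.36% and 0.984% in hippocampus and 1.58% and 1.17% in cortex, with ratios of 1.39 (1.38 to 1.40) and 1.35 (1.34 to 1.36). Oligodendrocytes, the myelin-forming cells, had 2.66% and 2.16% in hippocampus and 2.80% and 2.26% in cortex, with ratios of 1.23 (1.23 to 1.24) and 1.24 (1.23 to 1.24). Endothelial cells had 1.60% and 1.23% in hippocampus and 1.65% and 1.42% in cortex, with ratios of 1.30 (1.29 to 1.32) and 1.17 (1.15 to 1.18). In pericytes, with 58 to 125 cells per library, the shares were 2.45% and 1.65% in hippocampus and 2.55% and 1.89% in cortex. Over all kept cells, whose mix of classes differed between libraries, the subset in cortex took 1.97% in both libraries, and in hippocampus it took 2.10% with DOCA-salt and 1.88% with sham.

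The nuclear subset had ratios nearer to 1 than the mitochondrial subset in the same cells. DOCA-salt to sham was 1.01 (1.0 to 1.02) and 0.961 (0.957 to 0.964) in astrocytes of hippocampus and cortex, the first of which lay below 1 under 4 other settings, scalings among them. It was 1.04 (1.04 to 1.05) and 1.10 (1.09 to 1.11) in microglia. It was 0.987 (0.983 to 0.990) and 0.997 (0.992 to 1.0) in oligodendrocytes, and 0.978 (0.969 to 0.988) and 1.02 (1.01 to 1.03) in endothelial cells. So the nuclear ratios ran from 0.961 to 1.10 and the mitochondrial ones from 0.726 to 1.39. Directions of single nuclear members were most uneven in cortex. In cortex microglia 72 were higher and 4 lower, with a median log2 ratio of 0.14, against 0.01 over all genes. In cortex astrocytes 20 were higher and 56 lower, with a median of -0.05, against 0.05 over all genes. Whether a class differed from another in its treatment ratio could not be tested with 1 library a group.

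Counts of single members past 1.2-fold describe the same sums gene by gene, among members with at least 20 UMIs in the pair of libraries. Mitochondrial members are cut from long shared RNAs, so they are not independent of each other, and their counts are no separate support. In hippocampus astrocytes 12 of 13 mitochondrial members were at least 1.2-fold lower with DOCA-salt, against 15.6% of all genes, and in cortex astrocytes 12 of 13, against 10.9%. In microglia 13 of 13 were at least 1.2-fold higher in hippocampus, against 15.2% of all genes, and 10 of 13 in cortex, against 20.8%. In oligodendrocytes 7 and 8 of 13 were higher, against 24.8% and 24.4%. In endothelial cells, where mt-Nd6 had too few UMIs, 9 of 12 were higher in hippocampus and 3 of 12 in cortex, against 24.1% and 23.2%, so that the cortex count was near the background. The median log2 ratio of the mitochondrial members was -0.46 and -0.57 in astrocytes and 0.44 and 0.45 in microglia. Over all genes tested the median was 0.03 and 0.05 in astrocytes and -0.02 and 0.01 in microglia.

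The nuclear counts were small. In hippocampus 2 of 76 nuclear members were at least 1.2-fold higher in astrocytes, 2 of 76 in microglia, 1 of 76 in oligodendrocytes and 1 of 74 in endothelial cells, and 1, 4, 2 and 3 were lower. In cortex 3 of 76, 10 of 76, 3 of 76 and 3 of 74 were higher in the same order, and 1, 0, 1 and 1 were lower. All these shares lay under the backgrounds of all genes. Those backgrounds hold genes with as few as 20 UMIs in the pair, while most nuclear members had far more. The shares are thus not matched for depth and do not show that the members were unusually stable. The 10 in cortex microglia were Ndufs5, Ndufa5, Ndufc1 and Ndufv1 of complex I, Uqcr10 of complex III, Atp5e of complex V, and Cox6a2, Cox6b2, Cox7b2 and Ndufa4l2. Among these, Ndufa5 had a ratio of 1.29, Uqcr10 1.23, Atp5e 1.21 and Ndufc1 1.2.

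**Figure D2:**
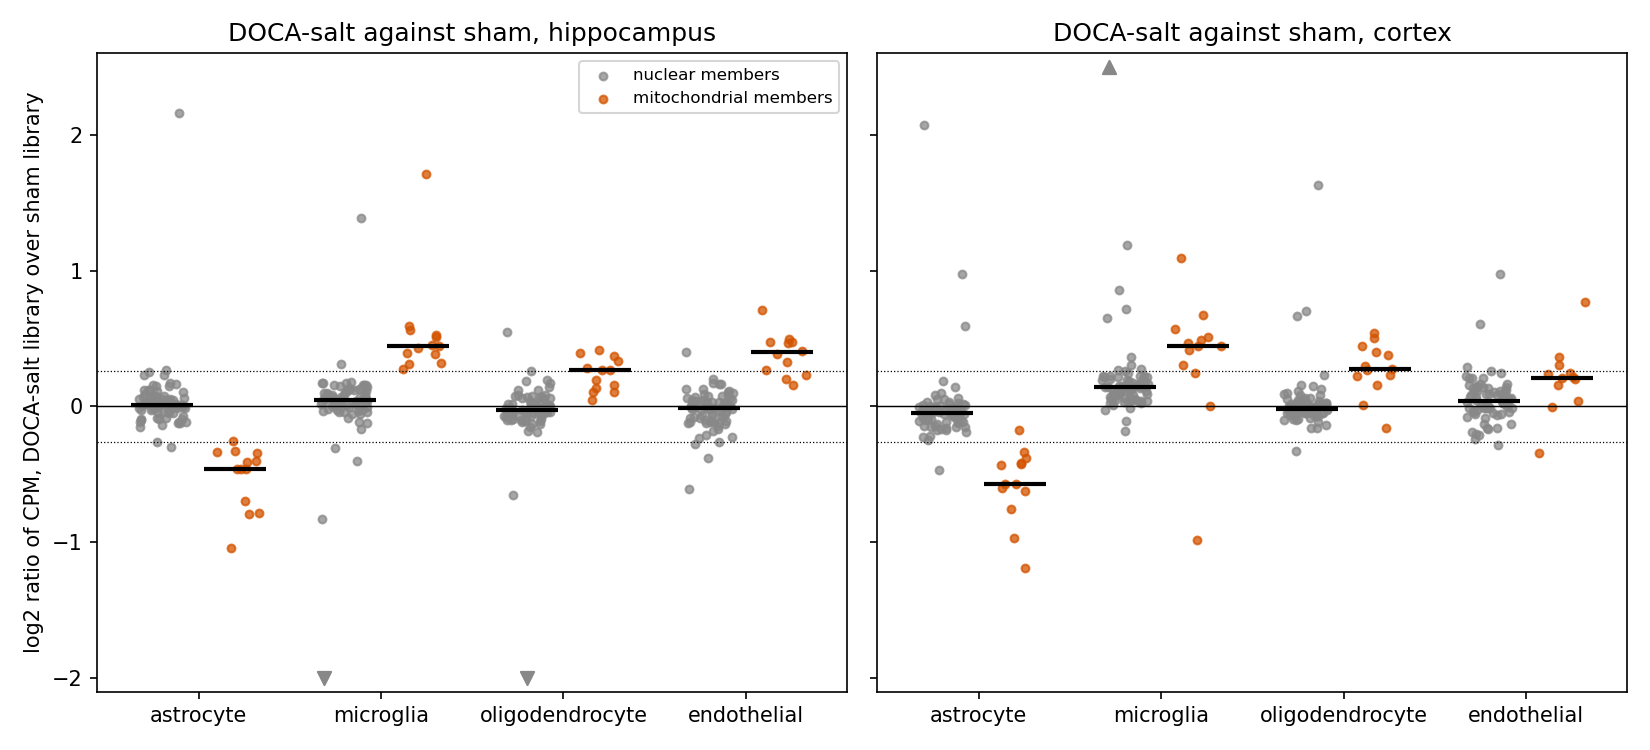
Log2 ratio of CPM, DOCA-salt over sham library (y axis), for each nuclear (grey) and mitochondrial (orange) member with at least 20 UMIs in the pair, by class (x axis), in hippocampus (left) and cortex (right). Black bars are medians, dotted lines mark 1.2-fold, and triangles mark 3 nuclear members beyond the axis. The orange points lie below 0 in astrocytes and mostly above 0 in the other classes. Medians of the grey points lie from -0.05 in cortex astrocytes to 0.14 in cortex microglia.

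At the stricter fold of 1.5, counted over the 353 pairs of a member and a class, 5 were higher and 9 lower in hippocampus, against 8.08% and 5.02% of all gene and class pairs. In cortex 16 were higher and 6 lower, against 8.67% and 3.76%. The mitochondrial part of these was 3 higher and 4 lower of 51 in hippocampus, and 3 higher and 6 lower of 51 in cortex. The members past 1.5-fold in astrocytes of both tissues were the complex I genes mt-Nd2, mt-Nd3 and mt-Nd5 on the mitochondrial side, and Cox7b2 on the nuclear side.

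Complex I genes of the mitochondrial genome, which form the core of its proton-pumping membrane arm, had the lowest summed ratio of the 4 complexes in astrocytes. The core subunit gene mt-Nd2 had 1118 and 1922 CPM in hippocampus and 716 and 1206 CPM in cortex. Both DOCA-salt libraries lay below the sham library of their tissue, with ratios of 0.582 (0.566 to 0.598) and 0.594 (0.582 to 0.605). Another core subunit gene, mt-Nd3, had 74.7 and 129 CPM in hippocampus and 39.1 and 76.2 CPM in cortex, with ratios of 0.578 (0.519 to 0.643) and 0.513 (0.473 to 0.555). The gene mt-Nd4l, read with the limit given above, had 241 and 497 CPM in hippocampus and 164 and 243 CPM in cortex. Its ratio was 0.485 (0.459 to 0.513) in hippocampus, the lowest of the mitochondrial members there, and 0.675 (0.647 to 0.703) in cortex. For mt-Nd5, the largest of the mitochondrially encoded subunits of complex I, ratios were 0.618 and 0.651. For mt-Nd1 they were 0.729 and 0.746, and for mt-Nd4 0.728 and 0.660. The low-count gene mt-Nd6, with 48, 29, 52 and 107 UMIs in the 4 libraries, had ratios of 0.758 (0.468 to 1.25) and 0.439 (0.309 to 0.617). Summed over the 7 genes, complex I had ratios of 0.675 and 0.663 in astrocytes.

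The sums of complexes III, IV and V were also below 1 in the same astrocyte libraries, and nearer to 1. Cytochrome b, from mt-Cytb, had 5555 and 7013 CPM in hippocampus and 3822 and 5158 CPM in cortex, with ratios of 0.792 (0.782 to 0.803) and 0.741 (0.735 to 0.747). The catalytic subunit of cytochrome c oxidase, mt-Co1, had 3830.5 and 4849 CPM in hippocampus and 2695 and 3594 CPM in cortex, with ratios of 0.790 (0.777 to 0.803) and 0.750 (0.742 to 0.758). The gene mt-Co3 had ratios of 0.726 and 0.675, within the range of the complex I genes, and mt-Co2 of 0.837 and 0.793. Complex IV summed to 0.785 and 0.740, and complex V to 0.797 and 0.770. The nuclear subunits of the 4 complexes ran from 0.945 to 1.02 in the same astrocytes. In each of the 4 complexes the ratio of DOCA-salt to sham was thus lower for the mitochondrial sum than for the nuclear sum.

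**Figure D3:**
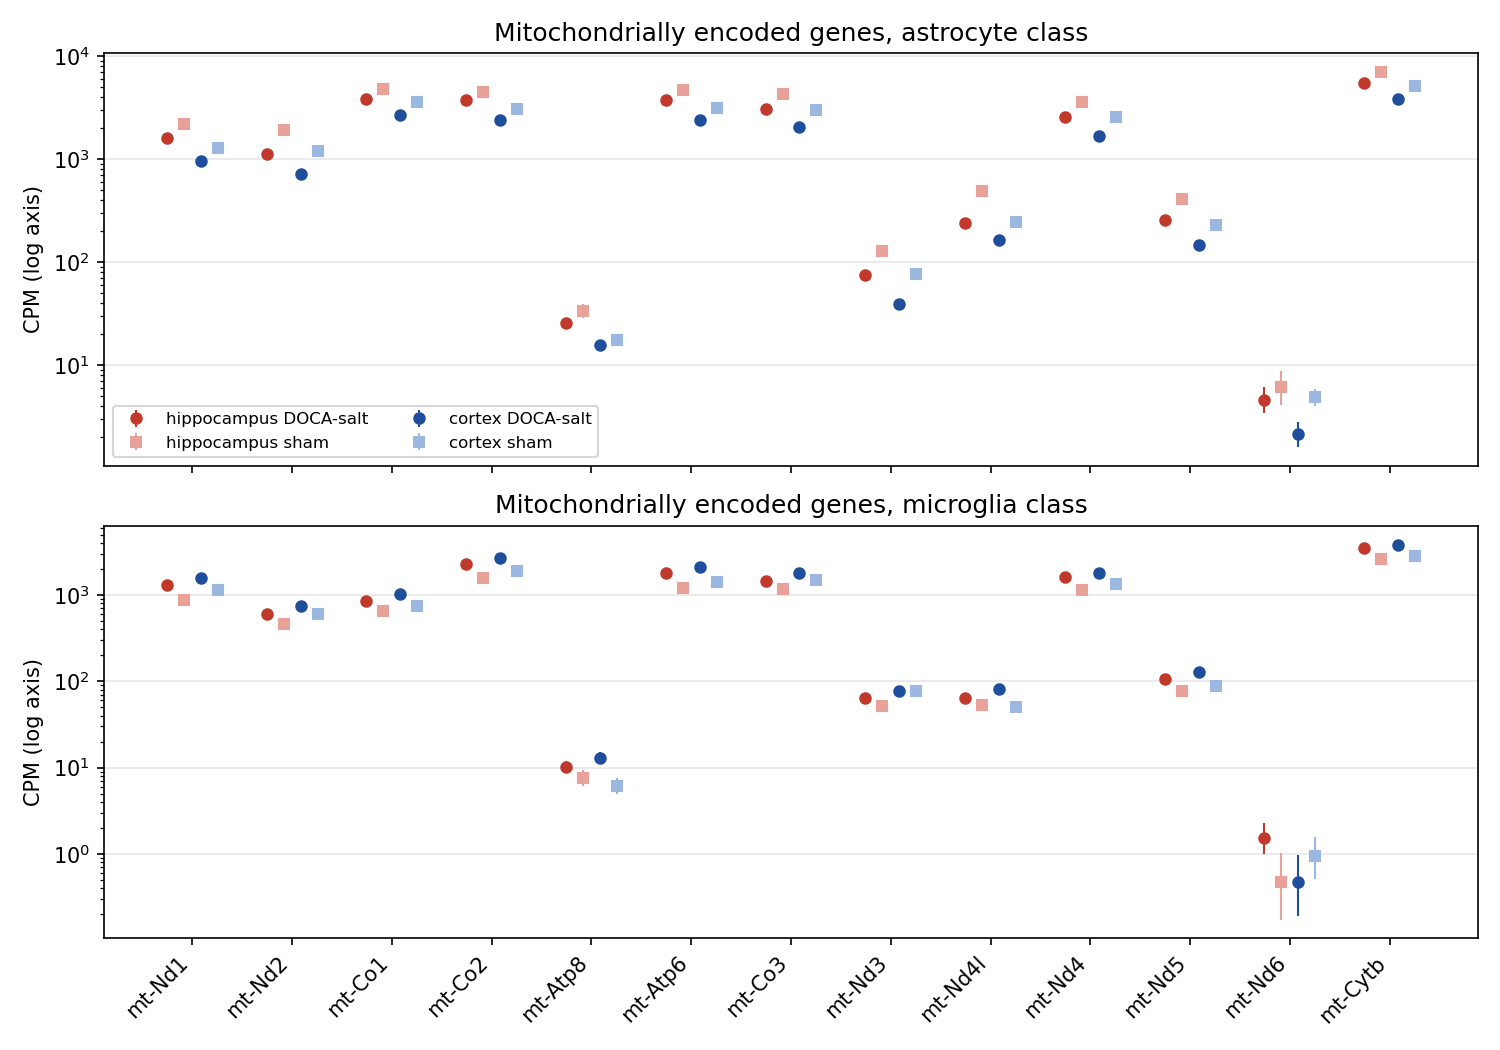
CPM (y axis, log scale) of the 13 mitochondrially encoded genes in the order of the mitochondrial genome (x axis), in astrocytes (top) and microglia (bottom), 1 point per library with its exact 95% counting interval. In astrocytes each DOCA-salt point lies under the sham point of its tissue, and in hippocampus microglia each lies over it.

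In microglia the same genes lay the other way. The level of mt-Cytb was 3506 and 2579.7 CPM in hippocampus and 3802 and 2799 CPM in cortex, with ratios of 1.36 (1.34 to 1.38) and 1.36 (1.34 to 1.38). That of mt-Co1 was 861 and 658 CPM in hippocampus and 1023 and 739 CPM in cortex, with ratios of 1.31 (1.27 to 1.34) and 1.39 (1.35 to 1.42). Both DOCA-salt libraries were above both sham libraries for these genes. For mt-Nd1 the values were 1315 and 874 CPM in hippocampus and 1572 and 1153 CPM in cortex, with ratios of 1.5 (1.47 to 1.54) and 1.36 (1.34 to 1.39). Exceptions below 1.2-fold in cortex were mt-Co3, at 1.19 (1.17 to 1.21), mt-Nd3, at 1.0 (0.924 to 1.09), and mt-Nd6, at 0.506 (0.173 to 1.34) on 7 and 14 UMIs. Complex sums in microglia ran from 1.32 to 1.49 for mitochondrial genes and from 1.03 to 1.11 for nuclear ones.

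For the subset sum, oligodendrocytes and endothelial cells had ratios nearer to 1 than microglia of their tissue. In oligodendrocytes mt-Co2, which carries the copper centre that takes electrons from cytochrome c, had 4562 and 3482 CPM in hippocampus and 4955 and 3745 CPM in cortex, with ratios of 1.31 (1.30 to 1.32) and 1.32 (1.31 to 1.34). The level of mt-Atp6, a proton channel subunit, was 4286 and 3307 CPM in hippocampus and 4588 and 3374 CPM in cortex, with ratios of 1.30 (1.29 to 1.31) and 1.36 (1.35 to 1.37). The gene mt-Nd3 was near even in hippocampus, at 1.03 (0.985 to 1.08), and below 1 in cortex, at 0.895 (0.845 to 0.947). In endothelial cells mt-Co1 had 1347 and 955 CPM in hippocampus and 1586 and 1378 CPM in cortex, with ratios of 1.41 (1.35 to 1.47) and 1.15 (1.10 to 1.2). The cortex endothelial ratio of mt-Nd2 was 0.997 (0.932 to 1.07), and that of mt-Nd3 0.790 (0.644 to 0.969). Complex sums of mitochondrial genes ran from 1.2 to 1.36 in oligodendrocytes and from 1.11 to 1.39 in endothelial cells.

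Other values of the same cells stand beside these shares, and their part in them was not tested. Astrocyte markers in microglia summed to 2581 and 388 CPM in hippocampus and 2899 and 1092 CPM in cortex, so they were higher in the DOCA-salt libraries, and to 23058 to 26394 CPM in astrocytes. In oligodendrocytes they summed to 589 and 316 CPM in hippocampus and 1313 and 989 CPM in cortex. In endothelial cells they summed to 1211 and 575 CPM in hippocampus and 3201 and 2998 CPM in cortex. The make-up of the mitochondrial UMIs in microglia differed from that in astrocytes in every library, since mt-Co1 made up 6.31% and 6.69% of them in the hippocampus DOCA-salt and sham microglia and 14.8% and 14.2% in the astrocytes. In cortex these shares were 6.48% and 6.33% in microglia and 15.7% and 15.2% in astrocytes. Microglia markers in astrocytes summed to 1459.5 and 1223 CPM in hippocampus and 1343 and 1121 CPM in cortex, and oligodendrocyte markers there to 2687 and 4237 CPM in hippocampus and 2209 and 2335 CPM in cortex. The nuclear RNA Malat1, which is relatively more abundant where cytoplasm is lost, had 37851 and 40186 CPM in hippocampus astrocytes and 30451 and 22827 CPM in cortex astrocytes, so it lay lower with DOCA-salt in hippocampus and higher in cortex. Astrocytes with over 5% of UMIs on the mitochondrial members made up 13.7% and 20.4% of the class in hippocampus and 2.87% and 6.41% in cortex. The median astrocyte had 5786 and 5105 UMIs in hippocampus and 5784 and 6433 in cortex, so depth lay higher with DOCA-salt in hippocampus and lower in cortex.

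Medians over astrocytes and over microglia lay in the same order as the summed shares. The median astrocyte had 2.35% of its UMIs on the mitochondrial members with DOCA-salt and 3.27% with sham in hippocampus, and 1.61% and 2.24% in cortex. Its quartiles were 1.08% and 2.41% in cortex DOCA-salt and 1.66% and 3.07% in cortex sham, so the cells of both libraries overlapped widely. The median microglial cell had 1.12% against 0.767% in hippocampus and 1.28% against 0.844% in cortex.

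Within clusters the 4 classes did not all behave alike. Clusters were made from genes other than the members, and those with at least 50 cells of the class in both libraries of a tissue were compared. All 4 microglial clusters had a higher mitochondrial share with DOCA-salt in both tissues, as did all 5 oligodendrocyte clusters in hippocampus, all 4 in cortex, and both endothelial clusters in each tissue. In astrocytes 3 of 5 clusters were lower in hippocampus and 5 of 6 in cortex. The 2 largest, clusters 2 and 4, had 2.35% against 3.47% and 1.82% against 2.64% in hippocampus and 1.92% against 2.5% and 1.31% against 1.90% in cortex. Going the other way, hippocampus cluster 11 had 3.95% against 3.76% and cluster 15 had 3.59% against 2.72%, with 69 and 54 cells, and cortex cluster 15 had 2.33% against 2.32%. The make-up of a class by cluster also differed between libraries. Cluster 4 held the most cortex astrocytes with DOCA-salt (1647) and cluster 2 with sham (1464). In hippocampus the largest microglial cluster was 3 with DOCA-salt and 5 with sham, and the largest oligodendrocyte cluster was 0 with DOCA-salt and 6 with sham.

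**Figure D4:**
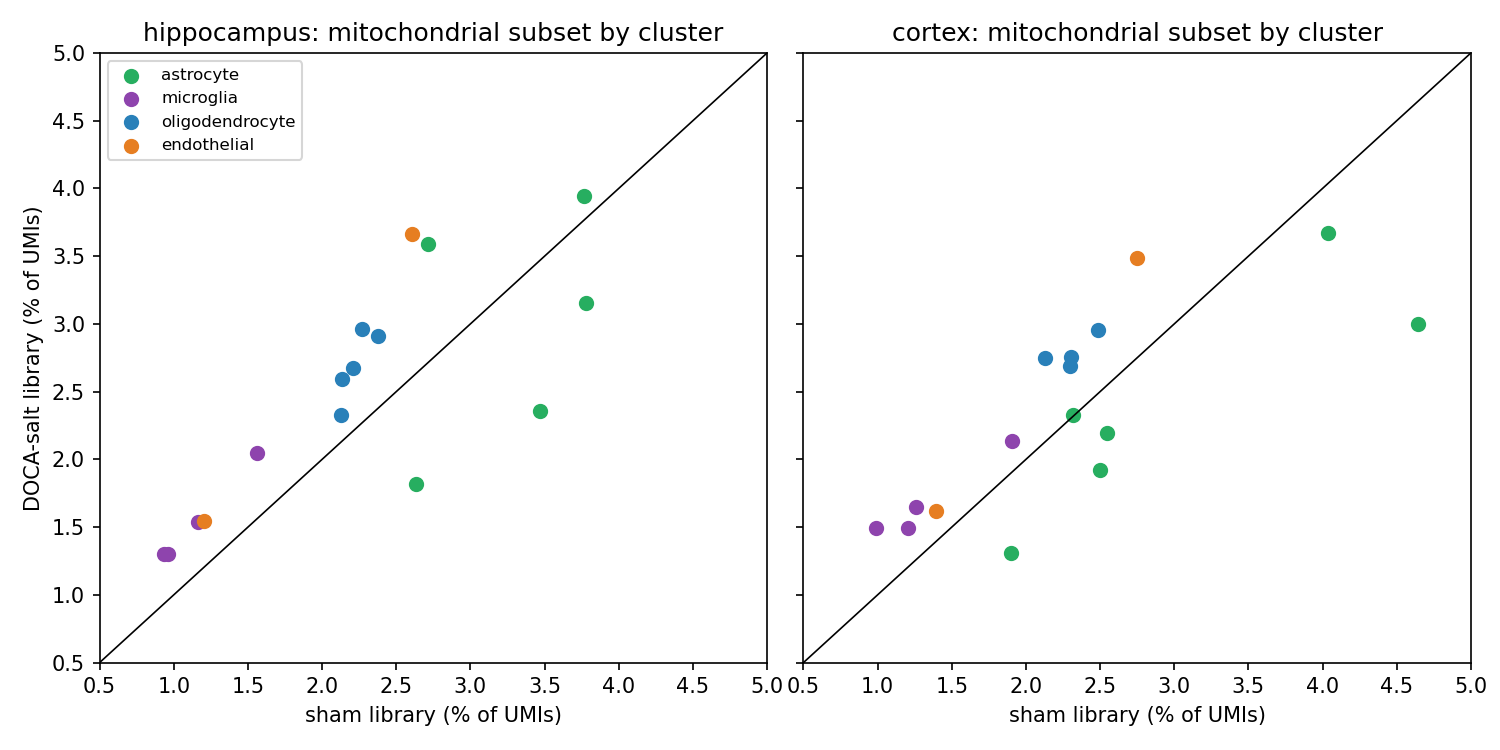
Share of UMIs on the 13 mitochondrially encoded genes (%) in the sham library (x axis) and the DOCA-salt library (y axis), 1 point per cluster of the class with at least 50 cells in both libraries, in hippocampus (left) and cortex (right). Points of microglia, oligodendrocytes and endothelial cells lie above the line of equality, and astrocyte points lie below it except 2 in hippocampus and 1 near the line in cortex.

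Among the nuclear members, few stood away from 1, and several of these are isoforms with a tissue-restricted name. In astrocytes the largest ratio was that of Cox7b2 (chr5:71442824-71548205, minus strand, GRCm38), an isoform of complex IV subunit 7b known from testis. It had 33.6 and 7.53 CPM in hippocampus and 21.4 and 5.08 CPM in cortex, from 351, 36, 516 and 111 UMIs. Both DOCA-salt libraries were above both sham libraries, with ratios of 4.46 (3.16 to 6.48) and 4.20 (3.42 to 5.21). Against the mean of the other classes with at least 50 cells in every library, astrocytes held it at 28.5-fold or more in at least 3 libraries. In microglia it had 6, 1, 21 and 2 UMIs, beside the astrocyte markers there given above, whose part was not tested. In astrocytes the common isoform Cox7b had 377 and 402 CPM in hippocampus and 401 and 443 CPM in cortex.

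Ndufs5 (chr4:123712710-123718202, minus strand), an accessory subunit of complex I on the intermembrane side, was low in the cortex sham library in every compared class. In oligodendrocytes it had 115 and 113 CPM in hippocampus and 117 and 73.8 CPM in cortex. In endothelial cells it had 81.3 and 75.2 CPM in hippocampus and 84.4 and 42.9 CPM in cortex. In cortex the ratios were 1.51 (1.43 to 1.59) in astrocytes, 1.81 (1.54 to 2.13) in microglia, 1.59 (1.48 to 1.70) in oligodendrocytes and 1.97 (1.56 to 2.49) in endothelial cells. In hippocampus they ran from 1.0 to 1.08. The cortex sham library thus stood apart from the other 3 for this gene, in all 4 classes at once, and hippocampus sham over cortex sham gave 1.32 to 1.75.

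Ndufa4 and its paralog Ndufa4l2 divided by cell type. Ndufa4 (chr6:11900292-11907497, minus strand) encodes a subunit of complex IV, and Ndufa4l2 (chr10:127514967-127517154, plus strand) is known as a target of hypoxia-inducible factor. In pericytes, the mural cells of capillaries, Ndufa4l2 had 2109 and 1867 CPM in hippocampus and 1802 and 1751 CPM in cortex. Ndufa4 had 124 and 72.1 CPM in hippocampus and 231 and 162 CPM in cortex there. The paralog was above Ndufa4 in all 4 pericyte libraries, as transcript 3′ ends counted without regard to length. Endothelial cells held Ndufa4 at 612 and 648 CPM in hippocampus and 684 and 666 CPM in cortex. They held Ndufa4l2 at 40.8 and 42.4 CPM in hippocampus and 39.6 and 25.9 CPM in cortex. Pericytes held Ndufa4l2 at 168 times or more the mean of the other classes in at least 3 libraries. Cox4i2, the isoform of complex IV subunit 4 known from lung and from hypoxia, lies outside the name rule. In pericytes it had 1154 and 1068 CPM in hippocampus and 1064 and 957 CPM in cortex. Cox4i1 had 1029.9 and 858 CPM in hippocampus and 1231 and 1258 CPM in cortex. In astrocytes Cox4i2 had 9.38 and 10.9 CPM in hippocampus and 19.5 and 20.8 CPM in cortex.

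Low counts of Ndufa4l2 in other classes are set beside the pericyte markers there. Its cortex ratio was 1.97 (1.40 to 2.80) in astrocytes, 1.65 (1.04 to 2.64) in microglia, 1.63 (1.05 to 2.56) in oligodendrocytes and 1.53 (1.11 to 2.10) in endothelial cells. Pericyte markers in endothelial cells summed to 892 and 901 CPM in hippocampus and 938 and 527 CPM in cortex, and in microglia to 75.4 and 55.9 CPM in hippocampus and 65.6 and 35.5 CPM in cortex. In astrocytes these markers summed to 168 and 174 CPM in hippocampus and 177 and 136 CPM in cortex. In oligodendrocytes they summed to 58.2 and 55.4 CPM in hippocampus and 55.5 and 33.1 CPM in cortex. In all 4 classes both the marker sums and Ndufa4l2 were lowest in the cortex sham library. The part of pericyte RNA in the ratios was not tested. In pericytes themselves the 4 libraries lay within 1751 to 2109 CPM.

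**Figure D5:**
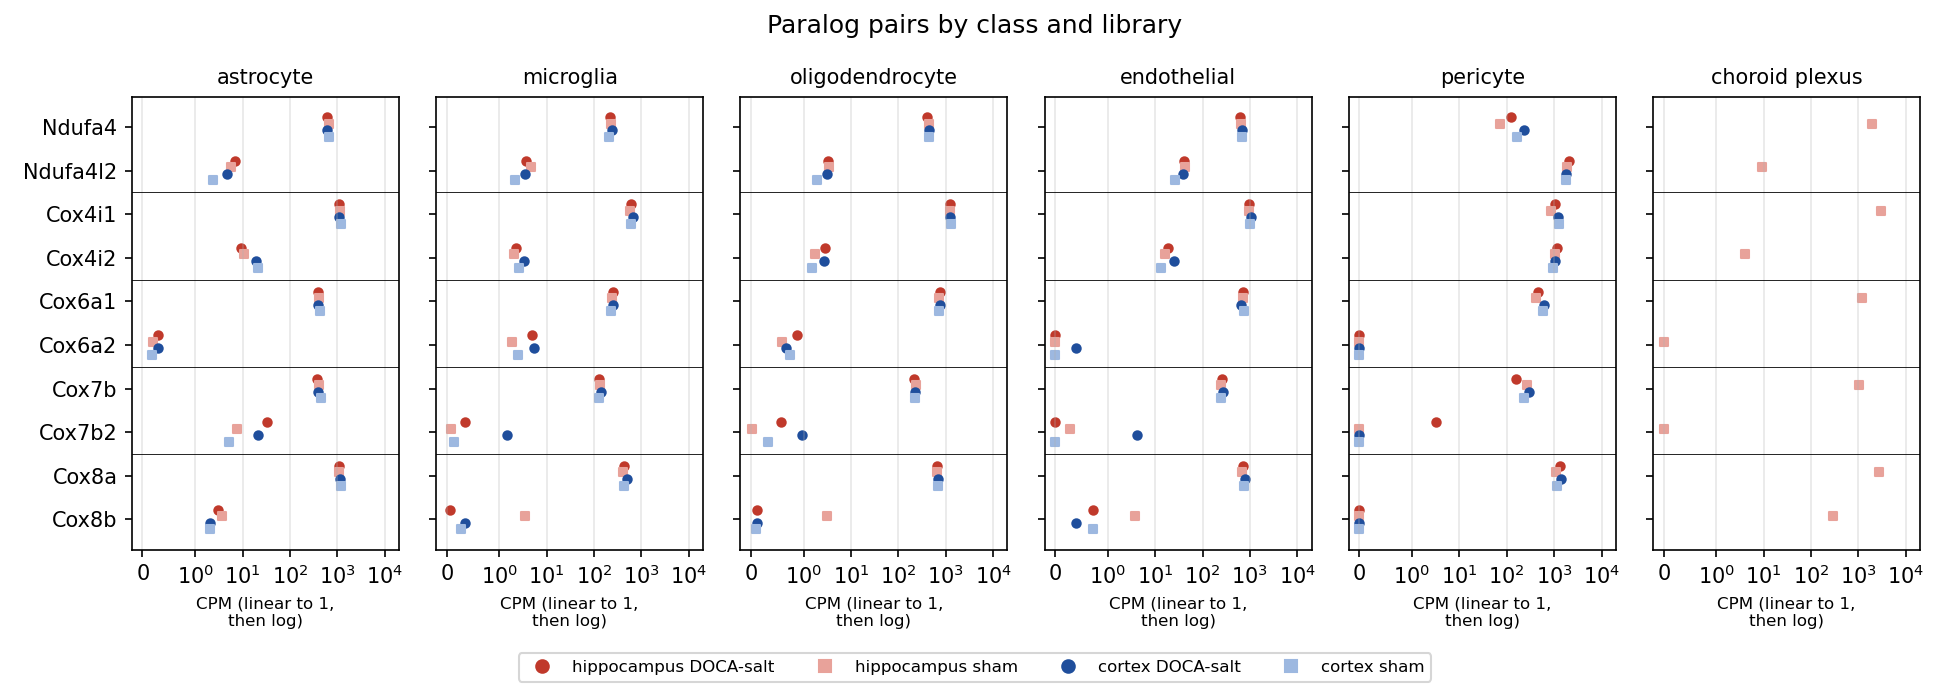
CPM (x axis, linear to 1 and then log) of 5 pairs of paralogs (y axis, common isoform above the restricted one) in 6 cell classes, 1 point per library. For choroid plexus only the hippocampus sham library is drawn. In pericytes Ndufa4l2 lies above Ndufa4 and Cox4i2 close to Cox4i1, while Cox7b2 is highest in astrocytes and Cox8b in choroid plexus.

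Cox8b (chr7:140898945-140900446, minus strand), the muscle-type isoform of complex IV subunit 8, was highest in choroid plexus at 296 CPM. In the hippocampus sham library it had 3.53 CPM in microglia and 3.15 CPM in oligodendrocytes, against 0.0594 and 0.124 CPM in the DOCA-salt library. The ratios of 0.0168 (0.000417 to 0.0986) and 0.0394 (0.00801 to 0.118) stand beside the choroid plexus markers that were high in the hippocampus sham library, and their part was not tested. Astrocytes had 3.06 and 3.77 CPM in hippocampus and 2.07 and 2.11 CPM in cortex. Cox6a2, the muscle-type partner of Cox6a1, was highest in microglia, at 4.93 and 1.88 CPM in hippocampus and 5.51 and 2.42 CPM in cortex. Ratios there were 2.62 (1.64 to 4.31) and 2.28 (1.52 to 3.47), on 83 against 24 and 81 against 36 UMIs. The gene overlaps Itgad, an integrin gene, on the opposite strand of chromosome 7, and reads of the pair cannot be told apart without the counting strand.

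Cox7a1, the heart-type isoform of subunit 7a, had 7.77 and 10.1 CPM in hippocampus and 10.1 and 9.37 CPM in cortex in endothelial cells. It had the lowest median log2 ratio over the 4 classes in both tissues, -0.39 in hippocampus and -0.25 in cortex. Cox6b2, known from testis, had a median of -0.29 in hippocampus and 0.21 in cortex. Atp5g1, Atp5g2 and Atp5g3 encode the same mature c subunit of complex V from different precursors. In astrocytes Atp5g1 had 221 and 264 CPM in hippocampus and 253 and 296 CPM in cortex. Atp5g3 had 709 and 688 CPM in hippocampus and 782 and 847 CPM in cortex in them, more than Atp5g1 in each library. Of the accessory complex I subunits, Ndufs4 was among the 3 lowest in hippocampus at a median of -0.16, and Ndufb6 and Ndufb5 in cortex at -0.14 and -0.12. The 3 highest in hippocampus were Atp5k, Ndufb1-ps and Ndufa12 at 0.17, 0.17 and 0.17. In cortex they were Ndufs5, Ndufa4l2 and Cox6b2.

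Nuclear members also differed across classes, with a median of 2.66 to 2.94 per library for the highest of the 4 classes over the lowest. This measure is unlike the treatment ratios of 2 libraries and is not set against them. In each library microglia were the lowest of the 4 classes for 71 nuclear members, out of 75 to 77 with a value. Astrocytes were the highest for 44 to 48 of them. The same counts over all genes are not given here, so these describe the members and do not set them apart from other genes. In astrocytes the complex I subunit Ndufa12 had 363 and 327 CPM in hippocampus and 414 and 432 CPM in cortex. In microglia it had 84.3 and 78.6 CPM in hippocampus and 99.0 and 83.6 CPM in cortex. Endothelial cells stood out by Ndufa7 (2.24 times or more the mean of the other classes in at least 3 libraries), Atp5j (1.93) and Ndufa1 (1.90). Oligodendrocytes stood out by Ndufa3 (1.78), the NADH-binding subunit Ndufv1 (1.78) and Atp5g1 (1.69), and pericytes beside Ndufa4l2 by Cox6b2 (2.08). In microglia the member that came next to Cox6a2 was Cox7a2l, which helps complexes III and IV to join, with 296 and 266 CPM in hippocampus and 308 and 299 CPM in cortex. Astrocytes had 127 and 113 CPM in hippocampus and 118 and 115 CPM in cortex of it. It was also the leading member in border macrophages, at 1.09.

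Between tissues the mitochondrial subset differed in astrocytes. Hippocampus over cortex was 1.45 (1.44 to 1.46) in the sham libraries and 1.51 (1.51 to 1.52) in the DOCA-salt libraries. All 13 members were at least 1.2-fold higher in hippocampus in each pair, for which no share of all genes at 1.2-fold is given. Their median log2 ratio was 0.60 in the sham and 0.64 in the DOCA-salt libraries, against 0.02 and -0.0003 over all genes tested in astrocytes. In the other classes the ratios of the subset were below 1, from 0.843 in sham microglia to 0.970 in DOCA-salt endothelial cells. For the nuclear subset, tissue ratios ran from 0.918 in sham astrocytes to 0.997 in sham microglia. At 1.5-fold, 18 of 353 pairs of member and class were higher and 3 lower in hippocampus in the sham libraries, against 8.42% and 7.12% of all pairs, and 12 and 2 in the DOCA-salt libraries, against 5.72% and 6.84%. Of the 18, 7 were mitochondrial genes in astrocytes, and of the 12, 10 were. In astrocytes mt-Nd5, for example, had 255 and 413 CPM in hippocampus and 148 and 228 CPM in cortex, with tissue ratios of 1.72 (1.63 to 1.81) in the DOCA-salt and 1.81 (1.72 to 1.91) in the sham libraries. Hippocampus and cortex astrocytes lay partly in different clusters, and cluster 17, with 284 and 139 cells in hippocampus and 42 and 48 in cortex, was mostly of hippocampus. Within cluster 2 the sham shares were 3.47% in hippocampus and 2.5% in cortex.

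Of the nuclear members, those lowest in hippocampus against cortex were Uqcrfs1, the Rieske subunit of complex III (median log2 ratio -0.31), Ndufa8 (-0.21) and Ndufa12 (-0.19) in the sham libraries. In the DOCA-salt libraries they were Cox5a (-0.29), Cox7a1 (-0.22) and Ndufa12 (-0.21). The highest in the sham libraries were Ndufa4l2, Ndufs5 and Cox6b2, at 0.97, 0.68 and 0.49, and both Ndufa4l2 and Ndufs5 share the low cortex sham library described above. In the DOCA-salt libraries the highest medians, of Ndufa4l2, Ndufa1 and Atp5k, were 0.08, 0.05 and 0.04. These tissue comparisons share their libraries with the treatment comparisons and are not independent of them.

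Other genes of the pathway were read from lists. Their values are DOCA-salt over sham within a tissue, except where tissues are compared by name. Complex II, whose 4 subunits Sdha, Sdhb, Sdhc and Sdhd are all nuclear, had medians from -0.10 to 0.07 (log2). In microglia 1 subunit was at least 1.2-fold higher in each tissue, against 15.2% of all genes in hippocampus and 20.8% in cortex. In cortex astrocytes 1 was lower, against 10.9%. The 78 mitochondrial ribosome genes, which make the proteins of the mitochondrial genome, had medians from -0.09 to 0.00, and in cortex astrocytes 13 were at least 1.2-fold lower and 0 higher. The background there was 10.9% of all genes lower and 23.6% higher. In hippocampus astrocytes 4 were lower and 3 higher, against 15.6% and 20.6%. The other classes had 1 to 12 lower and 1 to 10 higher over both tissues. The largest of these counts, 12 of 78 lower in hippocampus endothelial cells, was near the background of 16.5%. Of 15 genes of mitochondrial mass outside the chain (such as Vdac1, Tomm20 and Cs), at most 2 passed 1.2-fold in either direction in any class, with medians from -0.09 to 0.05. Over the classes and tissues, 15.2% to 24.8% of all genes were higher and 10.6% to 18.2% lower, so these counts lay near the background or below it. Of 17 tested genes for mitochondrial transcription and RNA upkeep (such as Tfam, Polrmt and Lrpprc), 2 were higher and 1 lower in hippocampus astrocytes and 0 and 1 in cortex ones, with medians of 0.07 and -0.04. Of all genes, 20.6% were higher and 15.6% lower in hippocampus astrocytes. In microglia 1 was higher and 3 lower in hippocampus, against 15.2% and 17.9% of all genes, and 1 and 4 in cortex, against 20.8% and 13%, so the hippocampus count of lower genes was near the background.

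For DOCA-salt over sham, assembly factors of complex I had medians from -0.07 to 0.13 over classes and tissues. Those of complexes III to V had medians from -0.05 to 0.04. Regulators of nuclear genes for mitochondria (Ppargc1a, Nrf1, Gabpa, Esrra and others) had a median of -0.30 in hippocampus astrocytes, where 5 of 8 were at least 1.2-fold lower and 1 higher, against 15.6% and 20.6% of all genes. The median was -0.02 in cortex astrocytes, where 0 of 9 were lower and 1 higher, against 10.9% and 23.6%. Glycolysis genes had medians of 0.29 and 0.26 in endothelial cells, with 10 of 18 and 8 of 17 at least 1.2-fold higher, against 24.1% and 23.2% of all genes, and 2 lower in each tissue, against 16.5% and 18.2%. In astrocytes 5 of 19 were higher in hippocampus, near the background of 20.6%, and 2 of 19 in cortex, against 23.6%, with medians of 0.12 and -0.03. The chain subunits outside the name rule (Cyc1, Cycs, Cox4i1 and Cox4i2) had medians of -0.10 and -0.15 in astrocytes and 0.07 and 0.14 in microglia. Between tissues the same lists lay apart in astrocytes. Hippocampus over cortex medians ran from -0.40 to -0.12 in the sham libraries, except for the regulators at 0.10. In the DOCA-salt libraries all ran from -0.26 to -0.07. Over all genes tested the medians were 0.02 and -0.0003.

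By level across 33 points of class and library, the genes outside the set most like the nuclear subset were Cox4i1 (Pearson r 0.966), the import factor Timm13 (0.954), the mitochondrial ribosomal genes Mrpl51 (0.945) and Mrpl42 (0.932), and Pdcd6 (0.932). Those most like the mitochondrial subset were Hadh (0.877) and Hadha (0.835), enzymes of fatty acid oxidation, with Nde1 (0.832), Dolk (0.831) and Ptpmt1 (0.827). They were the highest of 10228 genes by log2 (CPM + 1), and points of 1 library share its depth.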

How the data were processed

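The 4 libraries were made with the SeekOne DD 3′ kit from poly(A) RNA, per the labels. The authors deposited UMI counts per gene and barcode, which are whole numbers in every matrix. Tools named in the submitters' processing notes are Seurat, Subread, STAR and fastp, and the genome build is GRCm38. Versions, roles, the gene annotation and the counting strand are not given in the sources used here. Groups follow the library titles, with 1 library each and no test. The members and lists were chosen with earlier results of these data known, and the gate's cut-offs after marker scores had been seen.

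Cells with under 300 genes or over 20% mitochondrial UMIs were left out, as were doublets called by Scrublet (scanpy 1.11.5, expected rate 0.08), 4.12% to 6.56% of barcodes with at least 300 genes. A cell was put in a class if its score for that class was at least 0.3 and no other class's score exceeded 0.5 of it, closely related classes excepted. A score is the mean of the class's markers on a log scale, each divided by its percentile 95 among cells with a UMI and capped at 1, less the score's percentile 25 over cells. Cells within 0.05 of that minimum made up 1.55% to 3.30% per library. UMIs were summed per class and library and divided by the class total (CPM). Ratios need 20 UMIs over the pair and carry exact conditional binomial intervals, shares exact binomial ones and CPM exact Poisson ones, all at 95% (scipy 1.17.1). These cover counting error only. The ratio script was tested on simulated data. Leiden clusters (leidenalg 0.10.2, resolution 1) used 2000 variable genes, 30 components and 15 neighbours, without the members and other mitochondrial genes. Folds of 1.5 and 1.2 are descriptive. A longer form of the first promoter motif was searched before its core, so that search was not a first look.

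Named were all mitochondrial members, the tissue-type paralogs, the 3 nuclear members highest and the 3 lowest by median log2 ratio over the 4 classes in each comparison, the 3 with the largest fold in each class, and the 5 outside genes most like each subset. A result that the rule names may be not reported here. Members named beyond this rule were chosen after their values were seen. Alternatives covered scaling (edgeR 4.0.16 TMM factors, DESeq2 1.42.0 size factors, non-mitochondrial UMIs), the mitochondrial limit, doublets, the gate, clusters, UMI minimums and equal weight per cell. A minimum of 2000 UMIs per cell and removal of barcodes found in more than 1 library were added after seeing the data.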

Additional observations from a re-analysis of the deposited data

How the results depend on the processing

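Over 8 treatment ratios of the mitochondrial subset (4 classes in 2 tissues) and 11 other settings, 0 of 88 values lay on the other side of 1. The ranges were 0.728 to 0.789 in hippocampus and 0.696 to 0.746 in cortex for astrocytes, 1.36 to 1.40 and 1.33 to 1.36 for microglia, 1.19 to 1.24 and 1.21 to 1.25 for oligodendrocytes, and 1.27 to 1.32 and 1.13 to 1.22 for endothelial cells. Of 88 nuclear values, 5 crossed 1, 4 of them for hippocampus astrocytes and 1 for cortex oligodendrocytes. In hippocampus the nuclear subset was higher with DOCA-salt in 2 classes. It was higher in 1 under scaling to non-mitochondrial UMIs, TMM factors, DESeq2 factors and equal weight per cell. Pairs of a member and a class at least 1.5-fold higher with DOCA-salt in hippocampus numbered 5 of 353, against 8.08% of all pairs. They numbered 8 under no UMI minimum and 3 under a minimum of 100 UMIs. Such pairs at least 1.5-fold lower in hippocampus than in cortex, in the sham libraries, numbered 3 of 353, against 7.12% of all pairs. They numbered 5 under no UMI minimum. Shares of all pairs are those of the main setting. The log2 ratio of Cox6b2 in hippocampus endothelial cells was -0.61, and 0.18 under equal weight per cell. The cause of these shifts was not tested. Depth limited mt-Nd6 and the restricted isoforms, with few UMIs in most classes. No paired analysis was possible because each group holds 1 library. No library could be left out for the same reason.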
